A study of Canis lupus familiaris with 13 samples.

Results

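Expression of 7 genes of muscle protein breakdown was followed through biopsies of dog thigh muscle: the ubiquitin ligases TRIM63, TRIM55 and TRIM54, the F-box proteins FBXO32, FBXO30 and FBXO21, and the zinc finger protein ZFAND5. They were picked by symbol from a table of 30951 genes, with results of insulin against basal muscle already known, so the fold changes of these 7 genes in that contrast are given here as descriptions with no p-value. Each symbol had 1 row, and all 7 genes passed the filter on low counts that left 14629 genes. The lowest count of any of them in any library was 158, for FBXO32.

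The tissue was the biceps femoris of 4 wild-type dogs aged 9 to 10 months, sampled by biopsy with a local anaesthetic, flash frozen and sequenced as RNA. The 10 insulin-stimulated libraries were sample 1 of dogs 1 to 4 (n = 4), sample 2 of dogs 1 to 4 (n = 4) and sample 3 of dogs 1 and 2 (n = 2). The 3 basal libraries, labelled as basal insulin, were sample 0 of dogs 2, 3 and 4, so dog 1 had no basal library. The labels do not say what separates samples 1, 2 and 3, and give neither insulin dose nor time. All animals carry the same genotype label, and besides the anaesthetic no other agent is named for either group.

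Skeletal muscle removes proteins largely through the ubiquitin-proteasome system, in which a ligase chooses the protein to be tagged with ubiquitin and the proteasome then degrades it. TRIM63 (MuRF1) and FBXO32 (atrogin-1) are the ligases best known for rising in fasting, disuse and disease, when FoxO transcription factors enter the nucleus of the muscle fibre. Insulin acts through AKT to keep FoxO factors out of the nucleus, and lower ligase transcripts are a known accompaniment of insulin or feeding in rodent muscle.

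Libraries held between 45200416 and 81948641 counts. Fibre genes dominated in every library: 16 myofibre markers summed to between 284026 and 461726 CPM (counts scaled to a common library total) in insulin libraries and between 280907 and 357162 CPM in basal libraries, and CKM, the muscle creatine kinase, never fell under 51204 CPM. Markers of other cells were read too. The 10 macrophage markers summed to between 10.4 and 47.7 CPM under insulin and between 14.9 and 59.5 CPM in basal muscle. The 4 keratinocyte markers summed to between 44.5 and 88.0 CPM under insulin and between 49.8 and 59.8 CPM in basal muscle. That sum was mostly KRT10 and TP63, with means of 36.2 and 21.3 CPM under insulin, and does not show that keratinocytes were present. Of these lists, CD68 reached at most 0.325 CPM and KRT14 at most 0.201 CPM in any library. One library stood apart. In sample 2 of dog 1 the skeletal actin ACTA1 took 18.4% of all counts, against 10.4% to 13.7% in the others, and its mean correlation with the other libraries was the lowest at 0.943. The main spreads and correlations that rest on it are given with and without it. Fold changes between samples 2 and 1 are given without it for FBXO21, FBXO32, TRIM63, ZFAND5 and TRIM55. In bulk muscle, fewer cells of a type and less RNA per cell cannot be told apart.

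TRIM63 belongs to the MuRF ligases, which sit at the sarcomere, and in mice it tags thick filament proteins for removal during wasting. Sample 1 of dogs 1, 2, 3 and 4 held 28.5, 57.0, 26.2 and 29.2 CPM, sample 2 held 11.4, 50.9, 33.2 and 46.0 CPM, and sample 3 of dogs 1 and 2 held 36.2 and 42.3 CPM. Basal muscle of dogs 2, 3 and 4 held 227, 132 and 190.0 CPM. Every insulin library lay below every basal one, with a gap between 57.0 CPM, the highest insulin value, and 132 CPM, the lowest basal value. TRIM63 averaged 36.1 ± 13.4 CPM under insulin (SD, n = 10) and 183 ± 47.9 CPM in basal muscle (SD, n = 3), and it was the only 1 of the 7 genes whose groups did not overlap. Of all genes tested, 0.93% had insulin and basal values that did not overlap in this way.

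Set against the basal library of its own dog, TRIM63 in the 7 insulin libraries of dogs 2 to 4 stood at 15.4% to 25.1% of the basal level. The least reduced were sample 1 of dog 2 and sample 2 of dog 3, and the most reduced was sample 1 of dog 4. The fitted log2 fold change was -2.22 ± 0.26 for insulin over basal (SE). Sample 1 over basal gave -2.21 ± 0.34 and sample 2 over basal gave -2.28 ± 0.32, comparisons that use the same basal libraries. Group means under insulin were 35.3 ± 14.6 CPM in sample 1 (SD, n = 4), 35.4 ± 17.6 CPM in sample 2 (SD, n = 4) and 39.3 CPM over the 2 libraries of sample 3. These neighbours in level differed by less than their spread.

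**Figure D1:**
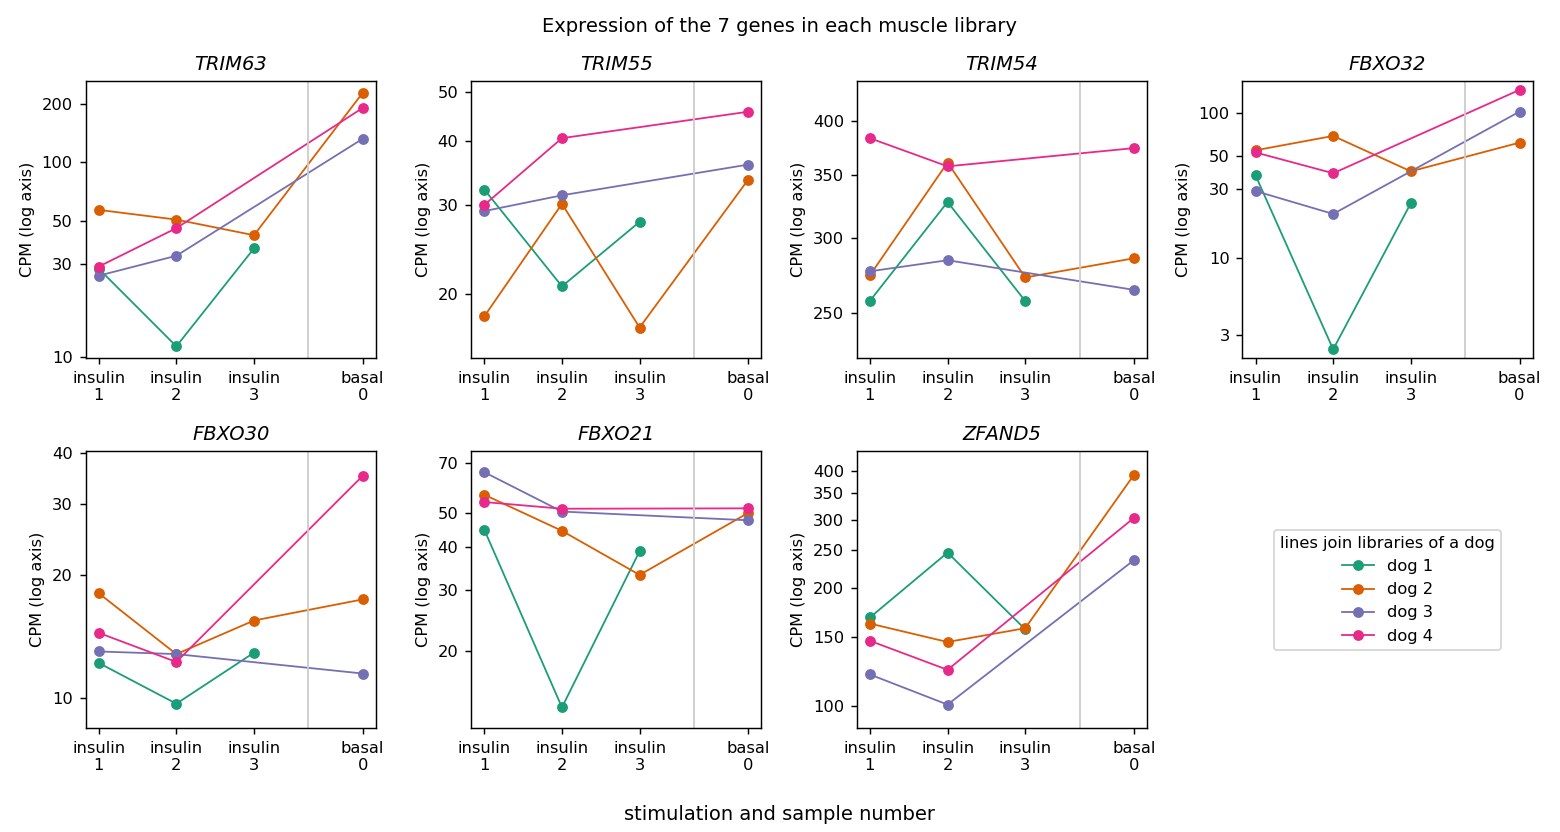
CPM (log axis) of each gene in all 13 libraries, with the insulin samples 1, 2 and 3 left of the grey line and the basal sample 0 right of it; points are libraries and coloured lines join libraries of a dog. TRIM63 insulin values (11.4 to 57.0 CPM) all lie below its basal values (132 to 227 CPM), while TRIM54 stays between 257 and 383 CPM throughout.

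In the canine RefSeq assembly UU_Cfam_GSD_1.0 the span of TRIM63 overlaps the kinase gene PDIK1L and a non-coding gene. Strand was not marked during library preparation, and reads of overlapping genes could be counted together. PDIK1L itself held 5.31 ± 0.963 CPM under insulin (SD, n = 10) and 4.88 ± 1.34 CPM in basal muscle (SD, n = 3), a log2 fold change of 0.13 ± 0.23 (SE). TRIM55 and FBXO21 also overlap uncharacterised genes in that assembly.

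TRIM55 (MuRF2), a close relative that links microtubules and the growing sarcomere, was lower by far less. In the insulin libraries it ranged from 17.1 to 40.6 CPM with a median of 29.5 CPM, and in basal muscle of dogs 2, 3 and 4 it held 33.6, 36.0 and 45.8 CPM. The groups overlapped because sample 2 of dog 4, at 40.6 CPM, lay above the basal libraries of dogs 2 and 3. Within dogs, however, all 7 insulin libraries were below their own basal library, at 50.9% to 89.5% of it. The lowest 2 were samples 3 and 1 of dog 2, and sample 2 was the least reduced of each dog. Fitted log2 fold changes were -0.43 ± 0.20 for insulin over basal (SE), -0.51 for sample 1 and -0.33 for sample 2.

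TRIM54 (MuRF3), the third MuRF, binds microtubules and pairs with its relatives. Its levels ran from 257 to 383 CPM with a median of 281 CPM under insulin, and stood at 286, 265 and 374 CPM in basal muscle of dogs 2, 3 and 4. The groups overlapped over their whole width, with means of 305 ± 47.5 CPM (SD, n = 10) and 308 ± 58.1 CPM (SD, n = 3) for insulin and basal muscle. Dog 4 was high in all 3 of its libraries, at 383 CPM in sample 1, 358 CPM in sample 2 and 374 CPM in basal muscle. Relative to its own basal library an insulin library held between 95.4% and 126%, and 3 of 7 lay lower. In the fit the log2 fold change was 0.05 ± 0.15 (SE).

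FBXO32 is the F-box subunit that gives an SCF ligase its targets, among them the myogenic factor MYOD1 and a translation initiation factor. Dog 1 held 37.1, 2.38 and 23.9 CPM in samples 1, 2 and 3, dog 2 held 55.1, 69.2 and 39.6 CPM, dog 3 held 29.0 and 20.2 CPM in samples 1 and 2, and dog 4 held 53.3 and 38.4 CPM. Basal muscle of dogs 2, 3 and 4 held 62.2, 102 and 143 CPM. The groups overlapped through dog 2 alone, whose sample 2 at 69.2 CPM exceeded its own basal library at 62.2 CPM. FBXO32 averaged 36.8 ± 19.3 CPM under insulin (SD, n = 10) and 102 ± 40.5 CPM in basal muscle (SD, n = 3).

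The 3 dogs with a basal library did not behave alike for FBXO32. Insulin libraries of dog 3 stood at 28.5% and 19.9% of its basal library, those of dog 4 at 37.2% and 26.8%, and those of dog 2 at 88.6%, 111% and 63.5%. The fitted log2 fold change was -1.35 ± 0.56 (SE), more uncertain than for TRIM63 or ZFAND5. It was -1.85 without the basal library of dog 2 and -0.94 without that of dog 3. With sample 2 of dog 1 left out it stayed at -1.35 with an SE of 0.30, since dog 1 lacks a basal library and enters only the estimate of spread. Sample 1 over basal gave -0.95 ± 0.69 and sample 2 over basal gave -1.75 ± 0.65 (SE).

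FBXO30 (MUSA1) is an F-box protein that, in mice, is restrained by BMP signalling and needed for muscle loss after denervation. Its level in insulin libraries ran from 9.66 to 18.1 CPM with a median of 12.9 CPM, and basal muscle of dogs 2, 3 and 4 held 17.5, 11.5 and 35.2 CPM. The basal library of dog 3 was below 9 of the 10 insulin libraries and that of dog 4 was above all of them. Within dogs, insulin libraries of dog 4 stood at 41.1% and 34.8% of basal, those of dog 3 at 113% and 112%, and those of dog 2 at 104%, 73.3% and 88.7%. The fitted log2 fold change of -0.50 ± 0.24 (SE) rested on dog 4: it was -0.02 without its basal library, and -0.80 without the basal library of dog 3.

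FBXO21 (SMART), an F-box protein raised by FoxO factors in denervated mouse muscle, had the tightest basal values of the 7 genes. Basal muscle of dogs 2, 3 and 4 held 50.1, 47.7 and 51.6 CPM, while insulin libraries ran from 13.7 to 65.7 CPM with a median of 47.6 CPM. The group means were 45.3 ± 14.4 CPM under insulin (SD, n = 10) and 49.8 ± 1.99 CPM in basal muscle (SD, n = 3). Insulin values lay on both sides of the basal ones, lower than the own basal library in 3 of 7 pairs and higher in 4. In the fit insulin over basal gave a log2 fold change of 0.04 ± 0.28 (SE).

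ZFAND5 (ZNF216) is no ligase: it binds ubiquitin through its A20-type zinc finger and activates the proteasome, and mice without it lose less muscle on denervation or fasting. Sample 1 of dogs 1, 2, 3 and 4 held 169, 163, 120 and 147 CPM, sample 2 held 247, 146, 101 and 124 CPM, and sample 3 of dogs 1 and 2 held 157 and 158 CPM. Basal muscle of dogs 2, 3 and 4 held 390.0, 236 and 303 CPM. The groups overlapped by 1 library, sample 2 of dog 1, which at 247 CPM lay just above the basal library of dog 3 at 236 CPM. The 9 other insulin libraries lay at or under 169 CPM.

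ZFAND5 averaged 153 ± 39.3 CPM under insulin (SD, n = 10) and 310 ± 77.1 CPM in basal muscle (SD, n = 3). Its within-dog differences were the most even of the genes that were lower: all 7 insulin libraries stood at 37.4% to 51.0% of their own basal library. In each of dogs 2, 3 and 4 sample 2 was the lowest. The fitted log2 fold change was -1.20 ± 0.15 for insulin over basal, -1.16 ± 0.18 for sample 1 over basal and -1.19 ± 0.18 for sample 2 over basal (SE).

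**Figure D2:**
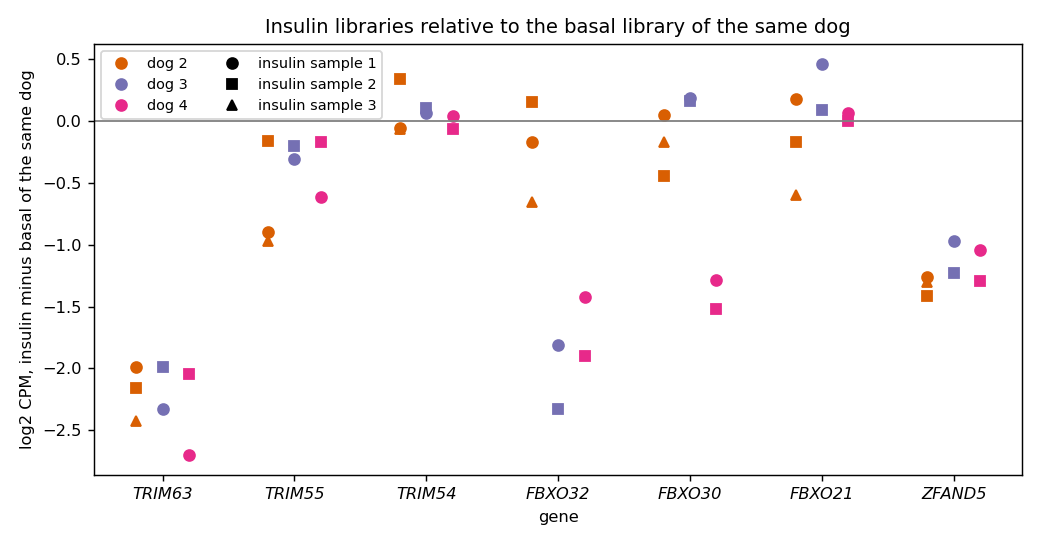
Difference in log2 CPM between each insulin library and the basal library of the same dog, for dogs 2 to 4 (colours) and insulin samples 1 to 3 (shapes); the line at 0 means equal to basal. TRIM63 (-2.70 to -1.99), ZFAND5 (-1.42 to -0.97) and TRIM55 (-0.97 to -0.16) are below 0 in all 7 pairs, whereas FBXO32 and FBXO30 split by dog.

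Across all genes, edgeR's quasi-likelihood test with Benjamini-Hochberg adjustment called 20 genes in insulin against basal, 0.137% of those tested. TRIM63 and ZFAND5 were 2 of them. Nothing is read from that, or from any call against basal muscle of the 7 genes followed here, since the same contrast chose them. ZFAND5 was not past the threshold of 0.05 without the basal library of dog 2, without that of dog 4, without the dog as a block, or with the insulin libraries of each dog summed. In sample 2 against basal, 7 genes (0.0479%) were called, TRIM63 among them, and this count ran from 0 to 12 with 1 library left out. In sample 1 against basal 0 genes (0%) were called by edgeR, with 438 at an unadjusted p under 0.05 and 40 called by DESeq2.

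Comparisons among the insulin libraries did not enter the choice of genes and were tested. In sample 2 against sample 1, with all 4 dogs contributing, edgeR's quasi-likelihood test called 0 of the 14629 genes (0%), with 495 at an unadjusted p under 0.05, and DESeq2 called 0. The call rate was 0% also for sample 3 against sample 1 and for sample 3 against sample 2, each with 2 libraries of sample 3, where 575 and 757 genes had an unadjusted p under 0.05 and DESeq2 called 2 and 8. None of the 7 genes was among the edgeR calls.

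FBXO21 had the lowest p of the 7 genes between samples 2 and 1. Sample 2 of dogs 1, 2, 3 and 4 held 13.7, 44.4, 50.5 and 51.5 CPM, against 44.8, 56.5, 65.7 and 53.8 CPM in sample 1. It was thus lower in sample 2 in 4 of 4 dogs, by a log2 fold change of -0.57 ± 0.27 (SE), with an adjusted p of 0.902 by edgeR and Benjamini-Hochberg adjustment. Without sample 2 of dog 1 the fold change was -0.23. FBXO30 was also lower in sample 2 in 4 of 4 dogs, at 9.66, 12.8, 12.8 and 12.2 CPM in sample 2 and 12.2, 18.1, 12.99 and 14.4 CPM in sample 1 of dogs 1 to 4. Its log2 fold change was -0.27 ± 0.25 (SE), with an edgeR adjusted p of 0.902.

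For the remaining genes the dogs were split. FBXO32 was lower in sample 2 than in sample 1 in dogs 1, 3 and 4 and higher in dog 2, at -0.80 ± 0.62 (log2, SE; edgeR adjusted p = 0.902), and at -0.19 without sample 2 of dog 1. TRIM63 was lower in sample 2 in dogs 1 and 2 and higher in dogs 3 and 4, at -0.07 ± 0.30 (edgeR adjusted p = 0.979). ZFAND5 was higher in sample 2 in dog 1 and lower in the other dogs, at -0.02 ± 0.17 (edgeR adjusted p = 0.989). With all libraries these 3 genes differed between samples by less than the SD of insulin libraries within a dog. Without sample 2 of dog 1 the fold change was 0.30 for TRIM63 and -0.23 for ZFAND5. That SD was then 0.29 for TRIM63 and 0.13 for ZFAND5. ZFAND5 thus differed by more than its spread without that library, and TRIM63 by about as much as its own.

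TRIM54 and TRIM55 had higher values in sample 2 in 3 of 4 dogs each. The log2 fold change was 0.17 ± 0.13 for TRIM54 (edgeR adjusted p = 0.902) and 0.18 ± 0.21 for TRIM55 (edgeR adjusted p = 0.907). Without sample 2 of dog 1 that of TRIM55 was 0.41. Sample 3 over sample 1 gave log2 fold changes from -0.31 for FBXO21 to 0.27 for TRIM63 across the 7 genes. Sample 3 over sample 2 ranged between -0.32 for TRIM55 and 0.51 ± 0.80 for FBXO32. In edgeR's test the lowest adjusted p of these comparisons was 0.957, for TRIM54 in sample 3 over sample 2.

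**Figure D3:**
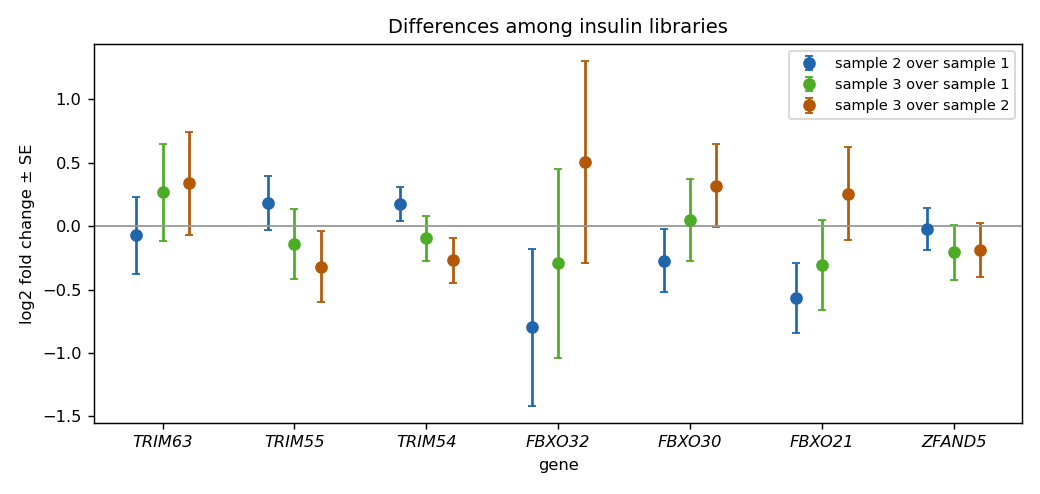
Fitted log2 fold changes of the 7 genes between insulin samples, with standard errors as bars, for sample 2 over 1, sample 3 over 1 and sample 3 over 2. The values run from -0.80 to 0.51, both for FBXO32, whose bars are also the widest.

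The genes varied to unlike degrees among insulin libraries of a dog. Over the 10 insulin libraries FBXO32 had a within-dog SD of 1.26 on the log2 scale, larger than in 99.6% of 9096 genes with a mean log2 CPM of at least 1, whose median was 0.31. FBXO21 followed at 0.59 and TRIM63 at 0.56. TRIM55 stood at 0.35, ZFAND5 at 0.23, FBXO30 at 0.20 and TRIM54 at 0.18, which was larger than in 11.1% of genes.

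Much of that spread came from sample 2 of dog 1. FBXO32 had 158 counts there, against 2452 in sample 1 and 1587 in sample 3 of the same dog, and lay 3.63 below their mean on the log2 scale (-3.63). Only 11 of 9096 genes (0.121%) were as low by this measure, FBXO32 included. FBXO21 lay at -1.60 and TRIM63 at -1.49, values that 503 and 604 genes reached, while ZFAND5 lay above at 0.60. In that library 1298 genes were more than 1 log2 unit lower and 315 more than 1 higher. Without it the SD of FBXO32 was 0.39, of TRIM63 0.29, of FBXO21 0.28 and of ZFAND5 0.13, against a median of 0.24 over all genes. The part of this library's make-up in these values was not tested.

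Correlations between the genes, each expressed as log2 CPM minus the mean of its dog, are descriptions over libraries that share dogs and scaling. Dogs 3 and 4 had 2 insulin libraries each, so the 2 centred insulin values of such a dog are mirror images. The 10 or 9 insulin libraries therefore held fewer independent values than their number. Over all 13 libraries TRIM63 and ZFAND5 had r = 0.76, both being highest in basal muscle. Over the 10 insulin libraries their r was -0.94, and over the 9 without sample 2 of dog 1 it was -0.74. In sample 1 of dog 2 both genes lay above the mean of the dog, at 0.20 for TRIM63 and 0.065 for ZFAND5. FBXO32 and FBXO21 had r = 0.95 over the 10 insulin libraries and 0.68 without that library. TRIM63 and FBXO32, the pair usually named together as wasting ligases, had r = 0.79 over the 10 libraries and -0.40 over the 9.

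**Figure D4:**
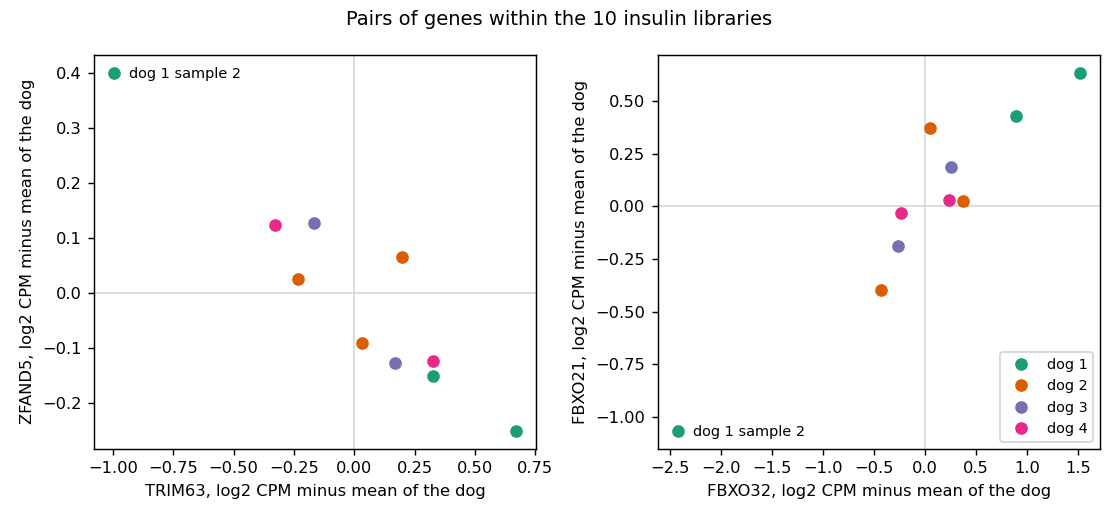
Log2 CPM minus the mean of the dog in the 10 insulin libraries, for ZFAND5 against TRIM63 (left) and FBXO21 against FBXO32 (right); colours mark dogs. Sample 2 of dog 1 lies at the end of both clouds, and the r of -0.94 on the left and 0.95 on the right became -0.74 and 0.68 without it. The 2 points of dog 3 mirror each other, as do those of dog 4.

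The genes with the most similar pattern were sought among 8264 genes by the same centred correlation over the 13 libraries. For TRIM63 they were TXNIP, an arrestin that restrains glucose uptake, at r = 0.963, the kinase anchor AKAP13 at 0.961, the ETS factor ELF2 at 0.953, CCNG2, an atypical cyclin and known FoxO target, at 0.949 and EPC1 at 0.933. For ZFAND5 they were the repressor HBP1 at r = 0.984, the glutamine synthetase GLUL at 0.955, ERRFI1, an inhibitor of EGF receptor signalling, at 0.942, ARID5B at 0.930 and the splicing factor RBFOX2 at 0.909. No gene was shared between these 2 sets of 5. Every gene of both sets was itself lower under insulin, with log2 fold changes from -0.50 for GLUL to -2.54 for ARID5B. These r thus include the difference from basal muscle that was known when TRIM63 and ZFAND5 were chosen. Without sample 2 of dog 1, a check added after the data were seen, r was 0.969 for TXNIP with TRIM63 and 0.984 for HBP1 with ZFAND5.

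For FBXO32 the most similar were the nuclear receptor ESRRG at r = 0.971, INO80, ZFHX4, R3HDM1 and CLK2, the last at 0.943. For FBXO21 they were PITPNB at 0.971 and FBXO40, a muscle-enriched F-box protein, also at 0.971, then PIP4K2B, MTMR10 and DDX17. FBXO30 had HELZ at 0.917, KDM5A, SLC20A2, ZNF280D and KLHL24. TRIM55 had PLCB1 at 0.909, then TRIM45, the activin receptor ACVR2B, GADL1 and the arrestin ARRDC3. TRIM54 had KCNE3 at 0.969, ZC3H14, the Z-disc protein PDLIM3, GCAT and RRP9. Without that library r was 0.926 for ESRRG with FBXO32, 0.863 for PITPNB and 0.878 for FBXO40 with FBXO21, 0.920 for HELZ with FBXO30, 0.896 for PLCB1 with TRIM55 and 0.959 for KCNE3 with TRIM54. The insulin-only sets shared ELF2 with the 13-library set of TRIM63, and KCNE3 and PDLIM3 with that of TRIM54, but no gene for the other 5.

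The wider ubiquitin machinery was read from lists of other genes, chosen with earlier results of these data known. Calls and p-values of insulin against basal in these lists are therefore descriptions too, and not independent tests. Over all genes tested, 603 of 14629 (4.12%) had an unadjusted p under 0.05 in insulin against basal, 246 of them higher and 357 lower. Among 34 other ubiquitin ligases studied in muscle, 0 were called higher and 0 lower by edgeR or by DESeq2, 3 had an unadjusted p under 0.05, all lower, and the median log2 fold change of insulin over basal was -0.08, against -0.00134 over all genes tested. ASB5 was at -0.56 ± 0.19, the F-box protein FBXW7 at -0.54 ± 0.19 and CBLB, which tags an insulin receptor substrate in unloaded mouse muscle, at -0.64 ± 0.25 (SE).

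FBXO32, FBXO30 and FBXO21 work only within SCF complexes. Of 24 genes for the SCF core, other cullins, neddylation and its control, 0 were called in either direction by edgeR or DESeq2. Of these, 0 had an unadjusted p under 0.05, and the median log2 fold change was 0.05. NEDD8, which activates cullins, was at 0.21 ± 0.17 and COPS2, a subunit of the complex that removes NEDD8, at 0.17 ± 0.18 (SE). CUL4B and CUL3, cullins of ligases other than SCF, were at -0.21 ± 0.22 and 0.24 ± 0.26 (SE). Ubiquitin genes with the activating and conjugating enzymes had 0 of 29 called by either tool, 1 with an unadjusted p under 0.05, and a median of -0.06. That gene was UBE2H, a conjugating enzyme, at -0.76 ± 0.30 (SE), with 9.95 to 43.1 CPM under insulin and 47.7 to 59.0 CPM in basal muscle, values that did not overlap.

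The proteasome is where ZFAND5 acts. Of 29 genes tested from the list of its subunits and their main transcription factor, 0 were called by either tool and 0 had an unadjusted p under 0.05, with a median of 0.07. Examples were the core subunits PSMB2 at 0.15 ± 0.16 and PSMA7 at 0.17 ± 0.19 (SE). Of 28 activators, assembly factors and ubiquitin shuttles, 0 were called by edgeR or DESeq2 and 0 had an unadjusted p under 0.05, with a median of 0.01. Among 5 relatives of ZFAND5, 0 were called by edgeR or DESeq2 and 0 had an unadjusted p under 0.05, with a median of -0.04. ZFAND6, its closest relative, was at -0.04 ± 0.17 (SE), with 91.3 ± 14.2 CPM under insulin (SD, n = 10) and 92.2 ± 7.71 CPM in basal muscle (SD, n = 3).

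Of 36 deubiquitinases, which remove ubiquitin again, edgeR called 0, and 2 had an unadjusted p under 0.05, with a median of -0.01. USP54 was at -1.17 ± 0.27 (SE), with 22.5 ± 10.8 CPM under insulin (SD, n = 10) and 54.8 ± 18.2 CPM in basal muscle (SD, n = 3). It had an adjusted p of 0.198 by edgeR and 0.0186 by DESeq2, which called this 1 gene of the list and 104 genes in all.

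Among 30 tested regulators of the ligases, 0 were called by edgeR, 5 had an unadjusted p under 0.05, and the median was -0.02. KLF15, a glucocorticoid-induced factor that raises TRIM63 and FBXO32 in rodent muscle, was at -1.04 ± 0.19 (SE; edgeR adjusted p = 0.0586). MYOG, which drives both ligases after denervation in mice, went the other way at 1.37 ± 0.31 (SE; edgeR adjusted p = 0.188), with 4.50 to 15.2 CPM under insulin and 3.00 to 3.94 CPM in basal muscle. DESeq2 called both. PPARGC1A, which restrains FoxO in mouse muscle, was at 0.67 ± 0.21, and FKBP5, a glucocorticoid-induced gene like KLF15, was at 0.48 ± 0.20 (SE), opposite in sign to KLF15.

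Among 23 tested substrates and sarcomere partners, edgeR called 1 higher and 0 lower, and the median was 0.05. Over all genes tested, edgeR called 20 of 14629 (0.137%). Because the list was chosen with earlier results of these data known, its call is a description and not an independent test. The gene that rose was MYOD1, a target of FBXO32, at 2.76 ± 0.36 (SE; edgeR adjusted p = 0.00561), with 10.2 ± 4.36 CPM under insulin (SD, n = 10) and 1.83 ± 0.999 CPM in basal muscle (SD, n = 3). The list had 0 calls without the basal library of dog 3, without that of dog 4, without the dog block and with the insulin libraries summed per dog. Of the sarcomere genes in this list, ACTN2 was at -0.21 ± 0.22 and MYOT at 0.15 ± 0.22 (SE).

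**Figure D5:**
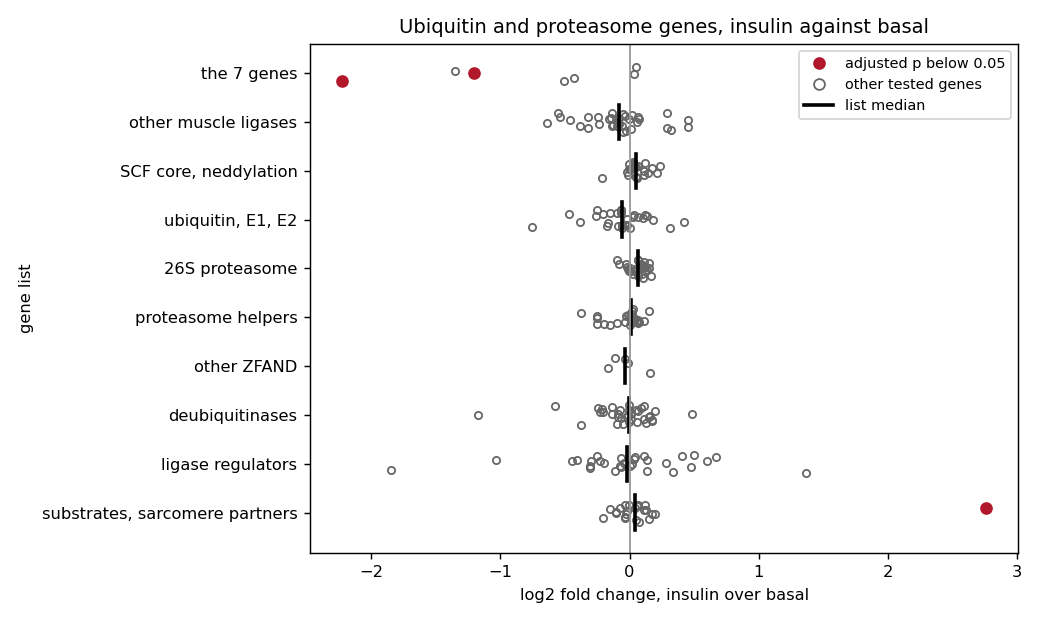
Log2 fold changes of insulin over basal for the 7 genes (top) and for 9 lists of other genes of the pathway, 1 point a gene; black bars are list medians, and filled points have an adjusted p under 0.05. TRIM63 (-2.22) and ZFAND5 (-1.20), chosen with this contrast known, lie left of most other points, and MYOD1 (2.76) is the 1 filled point among the other lists. Those lists were also chosen with earlier results of these data known.

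Markers of other cells were summed beside these values. Neutrophil markers, 7 of which were tested, summed to between 24.0 and 66.0 CPM under insulin and between 31.9 and 74.8 CPM in basal muscle, with 6 of 7 lower under insulin and a median log2 fold change of -1.05. Red cell markers summed to between 36.6 and 51.5 CPM under insulin and between 36.0 and 46.4 CPM in basal muscle, with 4 of 6 tested lower under insulin and a median of -1.20. In each of these 2 lists, 6 of 8 markers averaged under 1 CPM under insulin, so the medians rest largely on genes near the floor. The sums were mostly S100A8 (means of 31.0 CPM under insulin and 42.9 CPM in basal muscle) and GYPC (30.5 and 26.4 CPM). Fibroblast markers summed to between 354 and 1242 CPM under insulin and held 717, 3047 and 251 CPM in the basal libraries of dogs 2, 3 and 4, with 9 of 10 lower under insulin and a median of -0.34. Medians of the other marker lists ran from -0.45 for 3 keratinocyte markers to 0.53 for 6 nerve markers. The part of these cells in the values of the 7 genes was not tested.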

How the data were processed

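RNA sequencing was carried out on 13 libraries of canine biceps femoris. The authors deposited raw read counts per gene and library, and beside them a normalized signal that the authors made by dividing each library by 1 size factor; the counts were used throughout and the signal served only as a check. Per the labels' protocols, libraries were made with a full-length cDNA kit and transposase tagging, which does not mark the strand. Bowtie 0.12.2 and the CanFam3.1 build are named, without roles, in the submitters' processing notes; for the counting program, nothing is stated in the sources used here.

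The genes were matched by symbol, and they and all gene lists were chosen with earlier results of these data known. The analysis ran in R 4.3.3 and used edgeR 4.0.16 on the counts: filterByExpr, TMM scaling, robust quasi-likelihood fits, and Benjamini-Hochberg adjustment over 14629 genes with a threshold of 0.05. One model held dog and stimulation, the other dog and sample number. The standard error (SE) is the log2 fold change divided by the root of F. CPM were scaled by TMM, and log2 CPM for correlations used a prior count of 2. From each list the text names up to 4 genes of lowest unadjusted p and those past the threshold. The 5 most similar genes were taken per pattern. The values of some genes that these rules took are not reported here. Correlations, lists and levels are given with no set test, and levels of different genes are not compared because transcript lengths were not used. Gene neighbours came from RefSeq.

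The libraries of a dog pair by the dog number in the labels. Deviations from group means had a median r of 0.17 between libraries within a dog (15 pairs) and -0.0658 between dogs (47 pairs). Libraries of the same dog and stimulation were treated as independent given the dog. Chi-square per gene between libraries of a group was at least 93.2, so spread between libraries was far above counting error. Counts gave totals of 45200416 to 81948641 per library. Alternatives were RLE scaling, no filter on low counts, DESeq2 1.42.0, no dog block, insulin libraries summed per dog, dog 1 left out, and each library left out in turn.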

Additional observations from a re-analysis of the deposited data

Results flagged for a closer look

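In 3 of 21 combinations of gene and group, a library lay far from the rest of its group by Dixon's criterion, which chance exceeds in about 1 of 20 groups. TRIM63 in sample 1 of dog 2 was at 57.0 CPM, against 26.2 to 29.2 CPM in sample 1 of the other 3 dogs. That dog also had the highest basal TRIM63 level. Its sample 1 stood at 25.1% of basal, above sample 1 of dogs 3 and 4 at 19.9% and 15.4%. Sample 2 of dog 3 was also at 25.1%. TRIM54 in sample 1 of dog 4 was at 383 CPM, against 258 to 277 CPM in sample 1 of the other dogs. ZFAND5 in sample 2 of dog 1 was at 247 CPM, against 101 to 169 CPM in the 9 other insulin libraries. This is the library with the highest ACTA1 share and the lowest FBXO32 level.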

How the results depend on the processing

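Of 728 values of the 7 genes under alternative settings, 32 changed sign in a tested comparison among insulin libraries, none of which passed the threshold. Another 7, all of FBXO30 against basal, moved by more than the gene's own within-dog SD, and the other 689 were counted as neither. That SD was 0.20 for FBXO30 but 1.26 for FBXO32, or 0.39 without sample 2 of dog 1. FBXO32 could thus move further without being counted. Its sample 2 over basal ran from -2.42 to -1.34 with 1 library left out. A change of sign against basal was counted only for genes called in the main fit. Among the 689, values near 0 against basal therefore also changed sign with 1 library left out. Examples were insulin over basal for FBXO21 (-0.07 to 0.16) and sample 1 over basal for TRIM54 (-0.079 to 0.029). The cause was not tested. With each library left out in turn, TRIM63 kept a log2 fold change of insulin over basal between -2.32 and -2.14, and ZFAND5 between -1.24 and -1.13. That of FBXO32 ran from -1.85 to -0.94. FBXO30 ran from -0.80 to -0.02 for insulin over basal, -0.69 to 0.09 for sample 1 over basal and -0.99 to -0.17 for sample 2 over basal.

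Counts of calls over all genes moved with the dog block and with the other settings. Without the replicate block, calls were 6 for insulin against basal and 0 for sample 2 against basal. It also turned the sign of TRIM63 in sample 2 over 1 (0.00367), of ZFAND5 in sample 2 over 1 (0.045), sample 3 over 1 (0.076) and sample 3 over 2 (0.031), of FBXO21 and FBXO32 in sample 3 over 2 (-0.15 and -0.035), and of FBXO30 in sample 3 over 1 (-0.023). With insulin libraries summed per dog, 1 gene was called, TRIM63, itself chosen with this contrast known. With no filter, calls were 140 for insulin, 16 for sample 1 and 28 for sample 2 against basal, and DESeq2 called 104, 40 and 73, with 2 for sample 3 against 1 and 8 for sample 3 against 2. RLE scaling gave 4 calls for sample 1 against basal. Leaving out each library gave 7 (without the basal library of dog 4) to 28 calls (without sample 2 of dog 1) for insulin, 0 to 8 for sample 1 and 0 to 12 for sample 2 against basal, the highest of the last 2 without the basal library of dog 2.

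Leaving out 1 library also reversed signs among insulin samples. For sample 2 over 1 the values then ran from -0.28 to 0.30 for TRIM63 and -0.23 to 0.054 for ZFAND5. For sample 3 over 1 they ran from -0.37 to 0.83 for TRIM63, -0.43 to 0.13 for TRIM55, -0.89 to 0.96 for FBXO32, -0.048 to 0.20 for FBXO30 and -0.95 to 0.24 for FBXO21. For sample 3 over 2 they ran from -0.26 to 0.94 for TRIM63, -0.29 to 1.61 for FBXO32, -0.33 to 0.85 for FBXO21 and -0.39 to 0.15 for ZFAND5. Where this left a sample number with 1 library, that library was assumed to vary like the others. With 3 basal dogs and 2 libraries of sample 3, small differences may go undetected.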

Other observations

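The families to which the 7 genes belong were also counted, by symbol. Of 35 other TRIM genes tested, edgeR and its Benjamini-Hochberg adjustment called 0 higher and 0 lower in insulin against basal, 0 had an unadjusted p under 0.05, and the median log2 fold change was -0.06, with 12 above 0 and 23 below. TRIM23 was at -0.25 ± 0.17 and TRIM45, whose pattern was among those most like TRIM55, at -0.22 ± 0.20 (SE). Of 43 other F-box genes, edgeR called 0, 1 had an unadjusted p under 0.05 upward and 2 downward, and the median was -0.09. FBXL20 was at -0.75 ± 0.20 (SE; edgeR adjusted p = 0.338), with 3.81 to 7.68 CPM under insulin and 9.31 to 12.3 CPM in basal muscle, values that did not overlap. FBXO28 also had groups that did not overlap, with 2.74 to 4.43 CPM under insulin and 4.71 to 6.08 CPM in basal muscle.

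Within the 10 insulin libraries, where the difference from basal muscle plays no part, the most similar patterns were those of RASSF3 to TRIM63 (r = 0.986), NLN to FBXO32 (0.992), PPFIA1 to FBXO21 (0.998), M6PR to ZFAND5 (0.989), STK38 to TRIM55 (0.975) and LMCD1 to TRIM54 (0.984). TRAF6, itself a ubiquitin ligase studied in muscle wasting, was among the 5 genes most like TRIM54 (r = 0.972). Without sample 2 of dog 1, r was 0.951 for RASSF3, 0.891 for NLN, 0.991 for PPFIA1, 0.956 for M6PR, 0.966 for STK38, 0.978 for LMCD1 and 0.985 for TRAF6. These libraries share dogs, and centring within dogs leaves fewer independent values than libraries. The genes were picked for the 5 highest r among 8264 genes, so r is a description only.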
